A study of Mus musculus with 16 samples.

Results

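The 83 cytosolic ribosomal protein genes of the mouse were followed through 16 libraries of Ba/F3 cells, a pro-B line that needs interleukin-3 to grow. They were taken from the 25650 genes of the deposited count table by name (Rpl or Rps with a number and at most a short suffix, or Rplp0, Rplp1, Rplp2 or Rpsa) and by their entry as protein-coding genes. Of the 83, 51 encode proteins of the large and 32 of the small subunit, and 80 passed the filter on low counts that left 9540 genes for testing. The others were Rpl10l, at 0 counts in every library, Rpl39l, with 1 count in all, and Rpl3l, with 67 counts in all.

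One line is labelled gp130:IL-6R, with wt added in the titles of its libraries, after the signalling subunit and the binding subunit of the natural receptor, and the other (the ChimP3V3 line) carried the receptor labelled ChimP3V3 with gp130Box1/2. Both were sequenced in medium and under interleukin-6 (IL-6) at 100 ng/ml, with 4 libraries in each of the 4 groups. According to its title, the series concerns synthetic trimeric IL-6 receptor complexes in which STAT3 phosphorylation dominates. The labels do not give the time under IL-6, whether interleukin-3 was present, or whether a line is a single clone, so a difference between the lines may belong to the receptor or to the line and these cannot be told apart. No label says that the 4 libraries of a group came from separate cultures, and the p-values then measure only the spread between libraries, which may be technical.

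Ribosomal proteins assemble with ribosomal RNA into the small subunit, which reads the messenger RNA, and the large subunit, which joins the amino acids. Cells make the proteins in similar amounts and degrade those that find no place in a ribosome. Most of their messenger RNAs begin with a C and a run of pyrimidines, the terminal oligopyrimidine (TOP) motif, through which mTOR and Larp1 control their translation and stability.

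The letters around the transcription start show how this feature varies among the genes the results below turn on. Each line gives 20 bases before and 20 bases after the RefSeq start on GRCm38.p6, written 5′ to 3′ on the strand of the gene. Capitals mark the longest run of a C followed by C or T where it reached 8 bases. Where a gene has several RefSeq starts, as Rps24, Rpl22 and Rps27l do, the start with the longest run is shown. Rps6, Rps24, Rpl35 and Rps27 are shown as members with such a run across the start, Rpl22 and Rpl22l1 as a pair of paralogs, and Rpl7l1 and Rps27l as the members that fell under IL-6 in the gp130:IL-6R line.

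Rps6, chr4:86857348-86857387, minus strand: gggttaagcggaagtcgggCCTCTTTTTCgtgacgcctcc
Rps24, chr14:24490658-24490697, plus strand: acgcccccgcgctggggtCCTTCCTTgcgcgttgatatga
Rpl35, chr2:39005112-39005151, minus strand: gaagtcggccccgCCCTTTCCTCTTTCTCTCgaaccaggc
Rps27, chr3:90213629-90213668, minus strand: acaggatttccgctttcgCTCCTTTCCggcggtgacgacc
Rpl22, chr4:152324416-152324455, plus strand: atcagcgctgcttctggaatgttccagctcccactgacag
Rpl22l1, chr3:28805488-28805527, plus strand: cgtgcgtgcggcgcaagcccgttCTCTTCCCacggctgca
Rpl7l1, chr17:46782637-46782676, minus strand: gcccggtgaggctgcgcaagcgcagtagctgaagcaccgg
Rps27l, chr9:66946066-66946105, plus strand: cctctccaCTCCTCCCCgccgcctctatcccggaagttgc

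In Rps6, Rps24, Rpl35 and Rps27 the run spanned the start shown. At the other RefSeq start of Rps24 the longest run was 6 bases. Rpl22 and Rpl7l1 had no run of that length in the window, the run of Rpl22l1 began at base 4 after the start, and that of Rps27l lay upstream of the start. RefSeq promoters matched 63 of the 83 genes, and 30 of these (47.6%) had such a run in at least 1 promoter, against 15.7% of the 7735 tested genes with a promoter. The TOP-like letters (CTTTTC, or CTTTCC, or CCTTTC, or CTCTTTC) stood within 20 bases of the start, on the strand of the gene, in 31.7% of the members and 5.29% of tested genes. Over the 250 bases before and 50 bases after the start and on both strands, the ETS motif CCGGAAG was in 41.3% of members and 23.7% of tested genes, and the palindromic element CGCGAGA in 22.2% and 6.81%. The GC box GGGCGG was found in 61.9% against 70.7%, the TATA box TATAAA in 11.1% against 8.14%, and the YY1-like letters AGATGGC in 12.7% against 8.95%. These shares describe letters in a window and were not tested.

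Library totals ranged from 1275112 to 1650348 counts, so that 3 counts, the limit a count of 0 allows, stand for 1.8 to 2.4 CPM (counts scaled per library total and TMM factor; counting error only). Of the 24 pairs of libraries within groups, 6 did not differ detectably beyond the sampling noise of their counts (chi-square p over 0.05), and counting the closest such pair in 3 of the groups as 1 sample left the member counts below at 75 and 74 higher under IL-6. Of the pro-B markers, Rag1, Rag2 and Dntt were at 0 in all 16 libraries, while the summed level of the 17 listed pro-B markers was 808 to 859 CPM in medium and 1002 to 1050 CPM under IL-6 in the gp130:IL-6R line, and 1242 to 1323 CPM and 1225 to 1335 CPM in the ChimP3V3 line. The 10 erythroid and megakaryocyte markers summed to 738 to 765 CPM in medium and 693 to 711 CPM under IL-6 in gp130:IL-6R libraries, and to 2521 to 2723 CPM and 3768 to 3871 CPM in ChimP3V3 libraries. The 5 T and NK cell markers, with Cd3e and Cd4 at 0, summed to 77.4 to 97.1 CPM in medium and 189 to 198 CPM under IL-6 in the gp130:IL-6R line, and to at most 5.76 CPM in the other. Only 1 of these 5 passed the filter on low counts, so this sum may rest on 1 gene and does not stand for a cell type. That gene differed between the lines by a log2 of -6.84 in medium. Of the pro-B markers 6 passed, and of the erythroid and megakaryocyte markers all 10. These sums thus moved with IL-6 as well as with the line, and their part in either difference was not tested, and fewer cells of a type cannot be told apart from less RNA per cell in bulk samples.

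Each transcript gives reads from its 3′ end in this assay, so levels were compared between genes with no division by length. The 80 tested members lay close together: their mean level over all libraries had a median of 923 CPM, 69 of them lay between 500 and 1500 CPM, and the highest was 1.51 times the median. Rps20 (1396 CPM), Rpl6 (1394 CPM), Rpl23 (1351 CPM) and Rps27a (1330 CPM), whose product is made as a fusion with ubiquitin, were the highest. Rpl21 (57.7 CPM), Rpl10 (60.6 CPM), Rpl7l1 (126 CPM) and Rps27 (128 CPM) were the lowest, and these 4 either have a near-identical copy in the table or, as Rpl7l1, are a paralog of another member. This did not hold beyond them: the next lowest, Rps2 (137 CPM), has no such copy. Rpl13a (1196 CPM) and Rplp2 (1028 CPM), which have copies in the table, lay above the median. Members held 23 of the 50 highest places among all genes and 66 of the highest 200. The highest gene, Eef1a1, a translation elongation factor, held 0.18% of the counts. The highest count of any gene in a library ran only from 2586 to 2807. Within groups, the summed counts of the 67 members with a mean count over 800 followed the library total with a log-log slope of 0.542 (SE 0.0838). A slope of 1 would mean in proportion. High counts may thus be compressed, and the part of this in the narrow spread of levels was not tested.

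In each line ribosomal protein genes took a larger share of all counts when IL-6 was present. The share in the gp130:IL-6R line was 6.15%, 5.92%, 6.33% and 6.28% in the libraries in medium and 7.12%, 7.42%, 7.03% and 6.94% under IL-6. In the ChimP3V3 line it was 6.91%, 6.73%, 6.94% and 6.71% in medium and 7.49%, 7.69%, 7.77% and 7.85% under IL-6. In each line every IL-6 library was above every library in medium. The means were 6.17% ± 0.183 and 7.13% ± 0.209 (SD, n = 4) in the gp130:IL-6R line, and 6.82% ± 0.12 and 7.70% ± 0.156 in the ChimP3V3 line. With the closest pairs counted once they were 6.16% ± 0.211 and 7.14% ± 0.249 (n = 3) in the gp130:IL-6R line and 6.79% ± 0.12 (n = 3) in the ChimP3V3 line in medium. The subunits moved together, since the ratio of large to small subunit counts was 1.45 in both gp130:IL-6R groups and 1.42 in both ChimP3V3 groups.

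**Figure D1:**
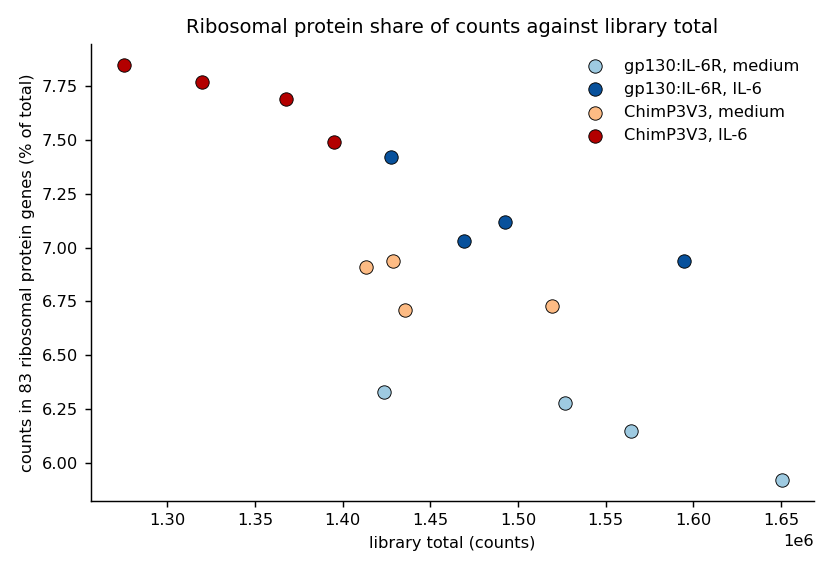
Share of counts in the 83 ribosomal protein genes (y axis, % of the library total) against the library total (x axis, counts), 1 point per library, coloured by group. IL-6 libraries lie above the libraries in medium of their own line (6.94% to 7.42% against 5.92% to 6.33%, and 7.49% to 7.85% against 6.71% to 6.94%), and within groups larger libraries tend to have smaller shares.

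The share also moved with the library total. Mean totals were 1541373 counts in medium and 1495946 under IL-6 in the gp130:IL-6R line, and 1449201 and 1339405 in the ChimP3V3 line. In the gp130:IL-6R line in medium the share fell from 6.33% in the smallest library to 5.92% in the largest, and in the ChimP3V3 line under IL-6 from 7.85% to 7.49%, in step with the total in both groups. In order of rising total, the other groups gave 7.42%, 7.03%, 7.12% and 6.94% (the gp130:IL-6R line under IL-6) and 6.91%, 6.94%, 6.71% and 6.73% (the ChimP3V3 line in medium), which did not fall at each step. Within groups the summed counts of the members followed the total with a slope of 0.545 (SE 0.086) on a log-log scale, where 1 would mean in proportion. The slope was 0.696 for the 160 other genes with a mean count over 800, 0.936 for all genes with a mean count of 300 to 800, and 1.13 for all genes of 100 to 300. The totals of the gp130:IL-6R groups overlapped and those of the ChimP3V3 groups did not. With the log2 library total as a covariate, 75 members were higher under IL-6 in the gp130:IL-6R line and 71 in the ChimP3V3 line, with median log2 changes of 0.21 and 0.16. Whether the total itself sets part of the share was not tested. The mitochondrial share of counts was also higher under IL-6, moving to 1.53% ± 0.078 from 1.16% ± 0.0237 in the gp130:IL-6R line and to 1.69% ± 0.0417 from 1.40% ± 0.0354 in the other, and its part in the result was not tested.

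Of the 80 tested members, 75 rose and 2 fell under IL-6 in the gp130:IL-6R line (edgeR, adjusted p under 0.05), beside 25.7% of all tested genes called higher and 24.3% called lower. Their median log2 change was 0.24 with a middle range of 0.19 to 0.28, and that of all genes was 0.01. In the ChimP3V3 line 74 rose, against 16.2% of all genes called higher, and the median was 0.23 against 0.03 for all genes. None was called lower there, against 11.4% of all genes; edgeR gave 0 members lower at an unadjusted p under 0.05 too, and DESeq2 and limma called 0. With library totals alone as the scale, 1123 of 2631 calls over all genes in the ChimP3V3 line were higher, against 1541 of 2624 with TMM factors, and the member counts were again 74 higher and 0 lower. The groups did not overlap upward for 69 members in the gp130:IL-6R line and 76 in the ChimP3V3 line, beside 22.7% and 15.9% of all genes, and downward for 2 and 0 members, beside 21.1% and 11.5%.

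The rise was small and even, in counts that followed library totals less than in proportion. Whether this made the rise smaller or more even was not tested. The median fold was 1.18 in both lines, and 27 and 22 members were both called higher and raised at least 1.2-fold. The 48 tested large subunit genes had medians of 0.24 and 0.23 on the log2 scale, and so did the 32 small subunit genes. The 437 other genes whose mean level lay in the same band (345 to 1243 CPM, the middle of the members' range) had medians of -0.02 and 0.04, with 163 called higher and 172 lower in the gp130:IL-6R line and 165 higher and 94 lower in the ChimP3V3 line. Scaling that may differ with abundance (cyclic loess) lowered the members' medians to 0.15 and 0.13, with 73 and 72 called higher. Deviations of member pairs from their group means had a median correlation of 0.642 over the 16 libraries, which share their totals.

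**Figure D2:**
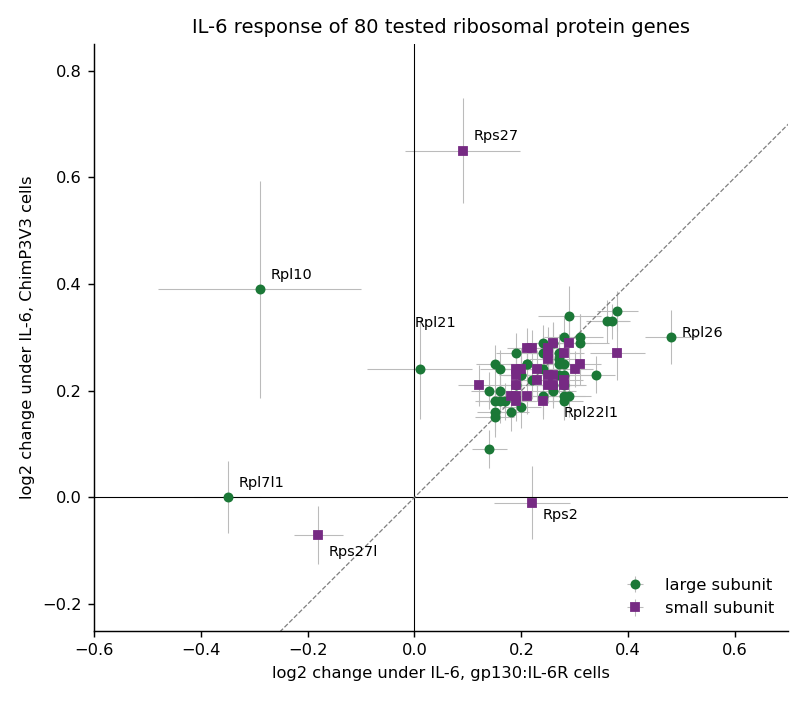
Log2 change under IL-6 in the ChimP3V3 line (y axis) against the gp130:IL-6R line (x axis) for the 80 tested members, with standard errors; the dashed line marks equal change. Most genes lie near 0.24 and 0.23, while Rpl7l1, Rps27l, Rpl10, Rps27, Rpl21 and Rps2 stand away from the rest.

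**Figure D3:**
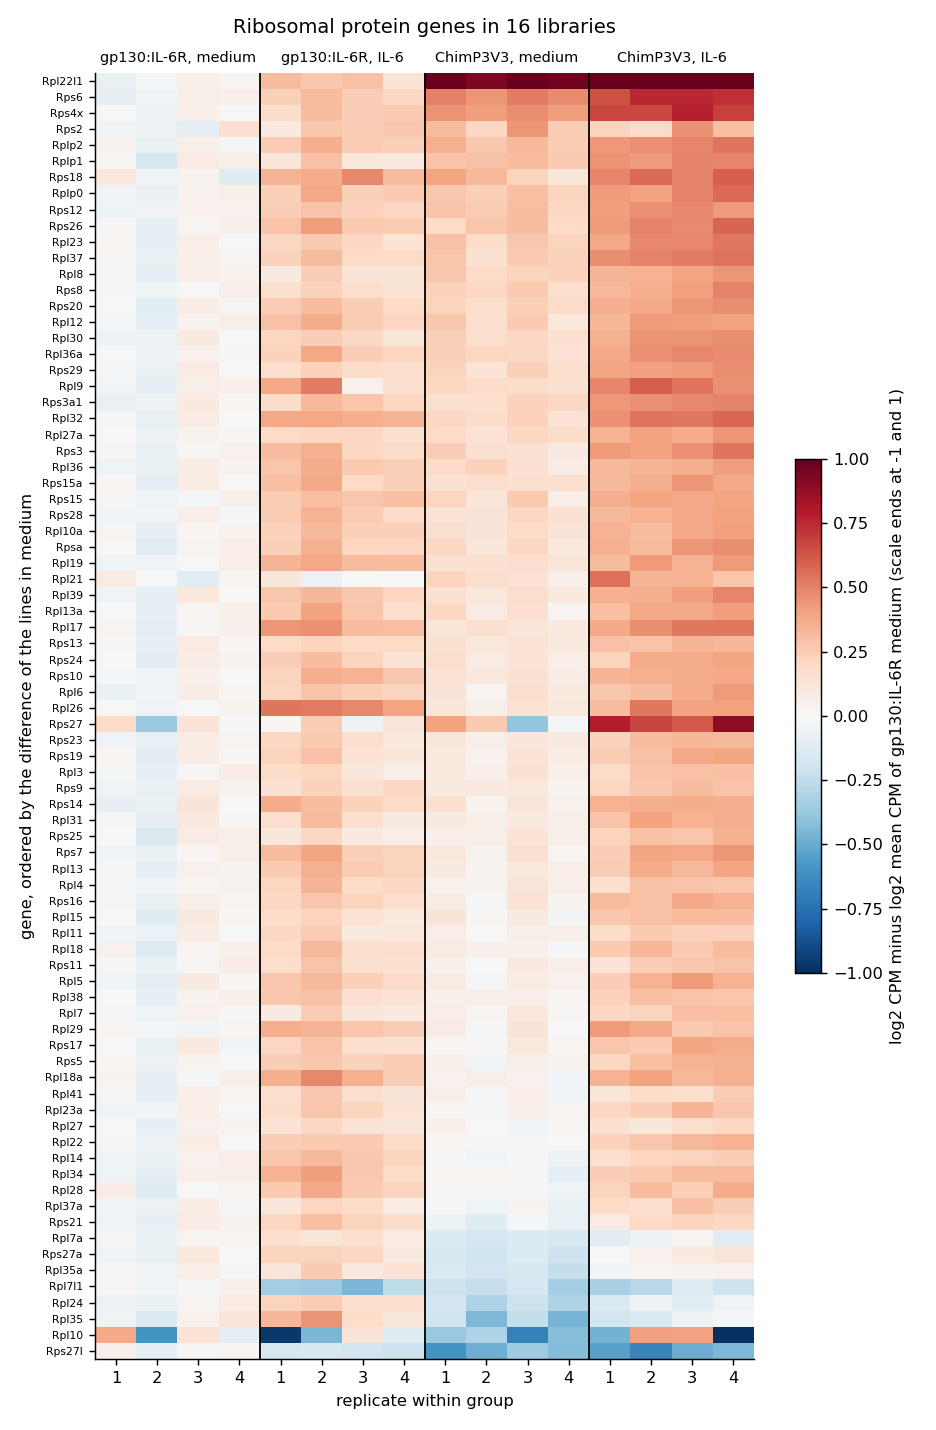
Level of each tested member (rows, ordered by the difference of the lines in medium) in each of the 16 libraries (columns), as log2 CPM minus the log2 mean of the gp130:IL-6R line in medium; colours end at -1 and 1. The columns under IL-6 are shifted upward in both lines, and Rpl22l1, Rps6 and Rps4x stand out at the top in the ChimP3V3 line.

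The acidic stalk proteins, which recruit the elongation factors to the large subunit, rose in both lines. Rplp0 was at 822, 799, 859 and 864 CPM in medium and 986, 1094, 985 and 1002 CPM under IL-6 in the gp130:IL-6R line. The ChimP3V3 libraries held it at 1006, 987, 1028 and 978 CPM in medium and 1122, 1102, 1179 and 1238 CPM under IL-6, and the groups of each line did not overlap. Its log2 changes were 0.28 (SE 0.0374, adjusted p = 2.98e-08) and 0.21 (SE 0.0364, adjusted p = 1.18e-05). Rplp1 changed by 0.16 and 0.18 and Rplp2 by 0.28 and 0.18, all past the threshold.

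Rpl5 and Rpl11, which with an RNA of the large subunit bind the Mdm2 ubiquitin ligase, rose by 0.26 and 0.17 in the gp130:IL-6R line and by 0.29 and 0.18 in the ChimP3V3 line. Rpl3, which lies at the catalytic centre, rose by 0.15 and 0.18, Rpl23 by 0.20 and 0.23, and Rpl13a by 0.28 and 0.25. Rpl38 rose by 0.22 in each line. The highest rises in the gp130:IL-6R line were those of Rpl26, Rpl17, Rps18 and Rpl32. Rpl26 was at 199, 194, 200 and 204 CPM in medium and 289, 286, 278 and 262 CPM under IL-6. Its level in the ChimP3V3 line was 217, 208, 220 and 214 CPM in medium and 247, 287, 263 and 264 CPM under IL-6, and no library in medium reached the IL-6 libraries of its line. Its log2 changes were 0.48 (SE 0.0493, adjusted p = 6.12e-11) and 0.30 (SE 0.0508, adjusted p = 7.75e-06), and the difference between the lines, -0.18, did not pass the threshold (adjusted p = 0.0805). Rpl17 rose by 0.38 and 0.35, Rpl32 by 0.37 and 0.33, and Rpl19 by 0.34 and 0.23.

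In the small subunit Rps6, the substrate of S6 kinase, rose by 0.25 and 0.23, Rps3 by 0.26 and 0.29, and Rps14 by 0.28 and 0.27. Rps19, Rps24 and Rps26, which are mutated in Diamond-Blackfan anaemia in humans, rose by 0.20, 0.23 and 0.31 in the gp130:IL-6R line and by 0.24, 0.22 and 0.25 in the ChimP3V3 line. Rpsa, also known as the laminin receptor, rose by 0.26 and 0.23, Rps28 by 0.26 and 0.21, and Rps25 by 0.12 and 0.21. Rps2, which lies at the entry of the messenger RNA channel, rose by 0.22 in the gp130:IL-6R line (adjusted p = 0.00874) and had a change of -0.01 in the ChimP3V3 line (adjusted p = 0.923). The difference of its responses, -0.23, did not pass the threshold (adjusted p = 0.0819).

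Both members that fell in the gp130:IL-6R line are paralogs of other members. Rpl7l1, a paralog of Rpl7 (chromosome 17, 47084833 to 47093598, GRCm39, minus strand), was at 145, 140, 142 and 149 CPM in medium and 113, 112, 105 and 121 CPM under IL-6 in the gp130:IL-6R line. The ChimP3V3 libraries held it at 125, 123, 128 and 114 CPM in medium and 115, 119, 132 and 125 CPM under IL-6. The groups separated in the first line and overlapped in the other. Its log2 change was -0.35 (SE 0.0636, adjusted p = 1.16e-05) in the gp130:IL-6R line and 0.00 (SE 0.0674, adjusted p = 1) in the ChimP3V3 line, and the difference of the responses was 0.35 (SE 0.0928, adjusted p = 0.00768). Rpl7 itself rose by 0.14 and 0.20.

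Rps27l, a paralog of Rps27 known as a target of Trp53 (chromosome 9, 66853368 to 66856798, GRCm39, plus strand), was at 362, 330, 354 and 355 CPM in medium and 311, 313, 306 and 303 CPM under IL-6 in the gp130:IL-6R line. Levels in the ChimP3V3 line were 231, 250, 274 and 259 CPM in medium and 241, 222, 249 and 257 CPM under IL-6, so that these groups overlapped and both lay below those of the other line. The log2 change was -0.18 (SE 0.0455, adjusted p = 0.000856) in the gp130:IL-6R line and -0.07 (adjusted p = 0.39) in the ChimP3V3 line, and the difference of the responses did not pass the threshold (0.11, adjusted p = 0.256).

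The responses of the lines differed for 2 members, Rpl7l1 and Rps27, both higher in the ChimP3V3 line, beside 12.4% of all tested genes. None had a lower response there, against 11.5% of all genes. At an unadjusted p under 0.05 edgeR gave 4 members in each direction, and by other tools DESeq2 called 0 and limma 1 lower. This count depended on the scale, and was 6 with library totals alone, 4 with factors computed without the members, and 7 with the library total as a covariate. It also rose above 0 without single libraries, among them 5 without gp130:IL-6R IL-6 replicate 4 and 4 without ChimP3V3 IL-6 replicate 3. The median difference was 0.00 for the members and 0.02 for all genes.

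Reads of 9 members could also fit a near-identical copy in the table, judged from the last 100 bases of GENCODE M21 transcripts. Rpl10, a late-joining protein of the large subunit, was counted 1410 times and its copy Rpl10-ps3 26419 times, with 100% identity over that stretch. On its own, Rpl10 was at 89.4, 45.5, 76.0 and 64.8 CPM in the gp130:IL-6R line in medium and 35.3, 50.1, 75.2 and 63.5 CPM under IL-6. The ChimP3V3 libraries held it at 53.3, 55.6, 43.2 and 51.4 CPM in medium and 49.7, 91.8, 91.2 and 32.8 CPM under IL-6, and the groups of each line overlapped. Its log2 changes, -0.29 and 0.39, did not pass the threshold (adjusted p = 0.218 and 0.162). With the counts of the copy added they were 0.23 (adjusted p = 1.44e-08) and 0.22 (adjusted p = 3.48e-07).

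Rps27 was counted 2946 times and Rps27rt 20986 times. Rps27 alone was at 122, 82.7, 117 and 105 CPM in medium and 108, 127, 103 and 116 CPM under IL-6 in the gp130:IL-6R line. Its level in the ChimP3V3 line was 141, 128, 81.0 and 106 CPM in medium and 184, 170, 163 and 198 CPM under IL-6, and only these groups separated. The difference of its responses was 0.55 (SE 0.147, adjusted p = 0.00407). With Rps27rt added, the changes were 0.33 and 0.38 and the difference was 0.05 (adjusted p = 0.473), which no longer passed the threshold.

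Rps18 held 28.1% of its sum with Rps18-ps5 and Rps18-ps6, Rpl21 held 26.7% of its sum with BC004004, and Rpl35 held 48.8% of its sum with Gm2000. Rpl21 alone had changes of 0.01 and 0.24 that did not pass the threshold, and with its copy 0.02 (adjusted p = 0.776) and 0.18 (adjusted p = 0.0141). Rpl36a and Rplp2 held 91.7% and 72.6% of their sums, and Rpl13a and Rpl29 nearly all of theirs. Of the 71 tested members with no listed copy, 69 rose and 2 fell in the gp130:IL-6R line, and 67 rose in the ChimP3V3 line. That is 97.2% higher and 2.82% lower, beside 25.7% and 24.3% of all tested genes, and 94.4% higher, beside 16.2%. Some of these 71 have near-identical transcripts in GENCODE M21 that were not analysed here, among them Rpl3 with 10, Rpl11 and Rpl7 with 7 each and Rpl26 with 6, and their part in the counts was not tested.

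**Figure D4:**
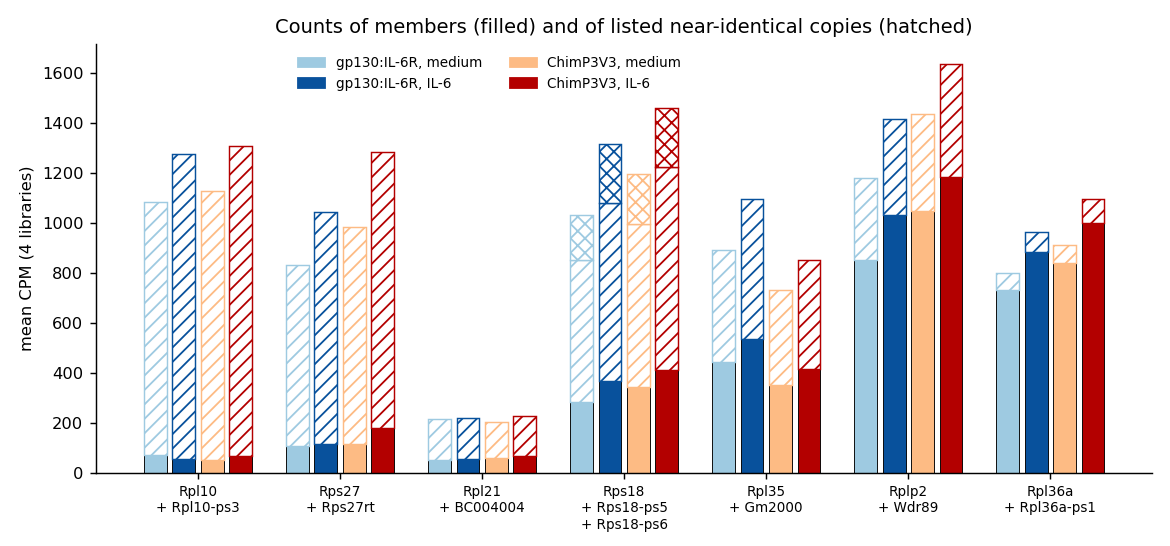
Mean CPM (y axis, 4 libraries) of 7 members (filled) and their listed near-identical copies (hatched, stacked) in each group. Rpl10 and Rps27 hold a small part of the sum with their copies, and the sums of these 2 genes with their copies are higher under IL-6 in both lines.

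Between the lines the members differed in both directions. In medium 42 were higher in the ChimP3V3 line and 7 lower, beside 31.7% and 33.5% of all tested genes, with a median log2 difference of 0.11 against 0.00 for all genes. The libraries of the lines did not overlap for 36 of the higher and 7 of the lower members, beside 27.7% and 29.7% of all genes, and under IL-6 for 28 and 5, beside 27.2% and 27.7%. With the library total as a covariate 32 were higher and 9 lower in medium, with a median of 0.05. Under IL-6 48 were higher and 6 lower, beside 31.2% and 31.6%, with a median of 0.11. The count under IL-6 rested on the scale and on single libraries: it was 17 higher and 10 lower with the library total as a covariate (median 0.01), and 26, 28 and 27 higher without gp130:IL-6R IL-6 replicate 4, ChimP3V3 IL-6 replicate 3 and ChimP3V3 IL-6 replicate 4.

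Rpl22l1 differed most. This paralog of Rpl22, an RNA-binding protein of the large subunit needed for T cell development in mice, lies on chromosome 3 (28859585 to 28861573, GRCm39, plus strand). It was at 393, 407, 431 and 420 CPM in medium and 514, 498, 505 and 455 CPM under IL-6 in the gp130:IL-6R line. The ChimP3V3 libraries held it at 823, 789, 821 and 804 CPM in medium and 923, 933, 914 and 943 CPM under IL-6, and every library of that line was above every library of the other. The log2 difference was 0.97 (SE 0.0374, adjusted p = 7.57e-25) in medium and 0.92 (SE 0.0362, adjusted p = 1.4e-24) under IL-6.

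Rpl22 (chromosome 4, 152410199 to 152418528, plus strand) was at 800, 782, 853 and 814 CPM in the gp130:IL-6R line and 822, 821, 806 and 813 CPM in the ChimP3V3 line in medium. These groups overlapped, and the log2 difference was 0.01 (SE 0.0339, adjusted p = 0.839) in medium and 0.05 (SE 0.0327, adjusted p = 0.166) under IL-6. In medium the ChimP3V3 line thus held Rpl22l1 and Rpl22 at means of 809 and 816 CPM, and the gp130:IL-6R line at 413 and 812 CPM. Both genes rose under IL-6 in both lines, Rpl22l1 by 0.26 and 0.20 and Rpl22 by 0.24 and 0.29.

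**Figure D5:**
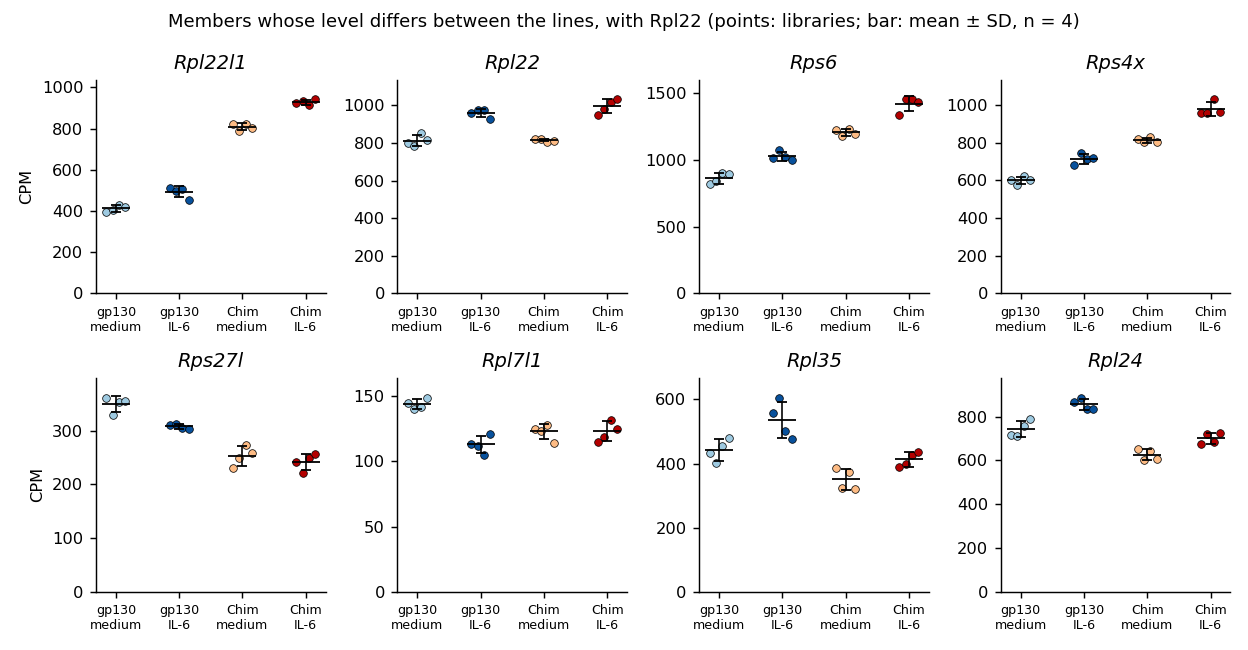
CPM (y axis, from 0) in each library of the 4 groups for 8 members, with the mean and SD (n = 4) as bars. Rpl22l1, Rps6 and Rps4x are higher in the ChimP3V3 line, Rps27l, Rpl35 and Rpl24 are lower, Rpl22 overlaps between the lines, and Rpl7l1 falls under IL-6 in the gp130:IL-6R line.

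Rps6 (chromosome 4, 86772897 to 86775649, minus strand) was at 819, 841, 901 and 898 CPM in the gp130:IL-6R line in medium and 1226, 1177, 1235 and 1199 CPM in the ChimP3V3 line in medium. No library of one line reached the other, and the log2 difference was 0.49 (SE 0.0347, adjusted p = 7.51e-16) in medium and 0.47 under IL-6. Rps4x, the X-linked gene of a small subunit protein (chromosome X, 101228547 to 101233000, minus strand), was at 602, 575, 621 and 600 CPM against 820, 802, 829 and 803 CPM in medium. Its log2 difference was 0.44 (SE 0.0356, adjusted p = 3.03e-14) in medium and 0.45 under IL-6. The stalk genes Rplp0, Rplp1 and Rplp2 were higher in the ChimP3V3 line by 0.26, 0.29 and 0.30 in medium.

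The 7 members lower in the ChimP3V3 line in medium were Rps27l, Rpl35, Rpl24, Rpl7l1, Rpl35a, Rps27a and Rpl7a. Rps27l differed by -0.46 (SE 0.0476, adjusted p = 2.55e-11) in medium and -0.35 under IL-6. Rpl24, which is mutated in Belly spot and tail mice (chromosome 16, 55786638 to 55791798, plus strand), was at 715, 712, 759 and 789 CPM in the gp130:IL-6R line and 651, 602, 641 and 604 CPM in the ChimP3V3 line in medium, with no overlap. Its log2 difference was -0.25 (SE 0.038, adjusted p = 2.48e-07) in medium and -0.29 under IL-6. Rpl35 differed by -0.33 and -0.38, and by -0.28 and -0.36 with the counts of Gm2000 added. Rpl7l1 was lower in medium (-0.23, adjusted p = 0.00253) and had a difference of 0.12 under IL-6 (adjusted p = 0.186), while Rpl35a, Rps27a and Rpl7a differed by -0.18, -0.17 and -0.15 in medium and were also called lower under IL-6.

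The other genes of the translation machinery did not share one direction. A list of ribosomal protein genes outside the name rule, which holds the pseudogene Rpl9-ps6, had 6 tested entries. Of these, 5 rose in the gp130:IL-6R line and 6 in the ChimP3V3 line, beside 25.7% and 16.2% of all tested genes. Among them were Fau (0.27 and 0.35), a fusion of a ribosomal protein with a ubiquitin-like protein, and Rack1, a scaffold on the small subunit (0.27 and 0.28). Rack1 and Fau also stand in the list of other TOP genes. All 5 tested ribosomal protein pseudogenes, Rpl9-ps6 again among them, rose in each line, beside the same shares of all tested genes. Among these, Rpl10-ps3, Rps18-ps5, Rps18-ps6 and Rpl36a-ps1 are near-identical copies of members, as is Rps27rt in the list outside the name rule. Their counts may therefore hold reads of the members. Of 23 tested other genes whose messenger RNAs are known to carry the TOP motif, 17 rose and 1 fell in the gp130:IL-6R line and 15 rose and 1 fell in the ChimP3V3 line, with medians of 0.20 and 0.22. That is 73.9% higher and 4.35% lower, beside 25.7% and 24.3% of all tested genes, and 65.2% and 4.35%, beside 16.2% and 11.4%. Eef2, the translocation factor, rose by 0.29 and 0.24, Eif3f by 0.48 and 0.35, and Eif4a2 by 0.44 and 0.49.

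Of the 31 initiation factors that are not in the TOP list, 4 rose and 10 fell in the gp130:IL-6R line and 7 rose and 4 fell in the ChimP3V3 line, with medians of -0.09 and 0.01. That is 12.9% higher and 32.3% lower, beside 25.7% and 24.3% of all tested genes, and 22.6% and 12.9%, beside 16.2% and 11.4%. Eif5, which triggers GTP hydrolysis at the start codon, rose by 0.83 in the gp130:IL-6R line and by 0.17 in the ChimP3V3 line, and the difference was -0.66 (adjusted p = 6.28e-11). Eif4e, the cap-binding protein, had changes of -0.32 (adjusted p = 6.3e-07) and 0.03 (adjusted p = 0.76). In medium 21 of the 31 were lower and 2 higher in the ChimP3V3 line, where the members' median was 0.11 and theirs -0.20. These are 67.7% lower and 6.45% higher, beside 33.5% and 31.7% of all tested genes.

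Of 18 genes that control ribosomal protein synthesis, 7 rose and 3 fell in the gp130:IL-6R line and 8 rose in the ChimP3V3 line. These are 38.9% and 16.7%, beside 25.7% and 24.3% of all tested genes, and 44.4%, beside 16.2%. Myc, a transcription factor that acts on ribosomal protein genes, rose by 0.97 (SE 0.106, adjusted p = 3.35e-10) and 0.61 (SE 0.102, adjusted p = 7.42e-06). Mtor fell in the gp130:IL-6R line (-0.39, adjusted p = 0.00171) and had a change of 0.17 in the ChimP3V3 line (adjusted p = 0.371), with a difference of 0.56 (adjusted p = 0.00805). Larp1 fell by 0.16 in the gp130:IL-6R line (adjusted p = 0.0181), where its groups overlapped (218 to 242 CPM in medium, 188 to 238 CPM under IL-6). In the ChimP3V3 line its means were 146 CPM in medium and 156 CPM under IL-6, and the difference of its responses passed the threshold. Of 16 chaperones and importers of ribosomal proteins, 2 rose and 6 fell in the gp130:IL-6R line and 1 rose and 3 fell in the ChimP3V3 line, with medians of -0.14 and -0.05. That is 12.5% higher and 37.5% lower, beside 25.7% and 24.3% of all tested genes, and 6.25% and 18.8%, beside 16.2% and 11.4%. Rrs1, an assembly factor for the complex of Rpl5 and Rpl11, rose by 0.55 and 0.30, while Rpf2, its partner, fell by 0.39 in the gp130:IL-6R line. Kpnb1, an importin, fell by 0.53 and 0.24.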

How the data were processed

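The 16 libraries, 4 in each of 4 groups, were prepared from 100 ng of RNA with a QuantSeq 3′ kit and read once over 100 bases, per the labels' protocols. The authors deposited raw counts per gene, made with CLC Genomics Workbench 23.0.4 on GRCm39 with Ensembl 107, as the overview sheet and, per the file headers, the tables state. The strand setting and the treatment of reads that fit several places or share a position are not given in the sources used here. No test used the other 48 columns that the authors deposited, which hold RPKM, TPM and CPM (a signal scaled to the library total): in each library the deposited RPKM, TPM and CPM signal are constant multiples of each other, so no length entered them.

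Genes passed filterByExpr by group (minimum count 10, minimum total 15), leaving 9540 genes, and counts were scaled with TMM factors. The quasi-likelihood test of edgeR 4.0.16 (glmQLFTest, in R 4.3.3) was run on 1 fit of all 16 libraries with a mean per group, with 12 residual degrees of freedom and Benjamini-Hochberg adjustment over all tested genes. All adjusted p-values come from it unless another tool is named, and n is 4 libraries per group. The steps were tested on simulated data. Shares over the members were described with no test. Near-identical copies were sought with blastn 2.17.0 (last 100 bases of GENCODE M21 transcripts on GRCm38, identity of at least 95% over at least 90 bases). Promoters are those of RefSeq on GRCm38.p6. Gene positions on GRCm39 were copied from the count table.

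Alternatives used other scale factors and filters, DESeq2 1.42.0, limma 3.58.1 on log2(CPM + 1), the library total as a covariate, thinned counts, a replicate block, stricter thresholds and the removal of single libraries. Cyclic loess, the adding of copies, members with no copy in the table and merged libraries were added after seeing the data. Single members of some lists are not reported here. The members and lists were chosen with earlier results of these data known. Named were fixed landmarks, paralogs, the 4 largest changes per direction and comparison, the 4 highest and lowest levels, and up to 4 called genes of each other list.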

Additional observations from a re-analysis of the deposited data

Results flagged for a closer look

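The responses to IL-6 differed between the lines for 2 members by the test of the difference itself: Rpl7l1, with a log2 difference of 0.35, and Rps27, with 0.55, whose call was lost when the counts of Rps27rt were added.

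Among 184 sets of 4 libraries of the members named in the text, 14 had a library far from the other 3, and chance alone flags about 1 in 20. In gp130:IL-6R IL-6 replicate 2, the highest library of its group by share of ribosomal protein counts, 5 members were far above the others: Rpl7 at 1151 CPM (others 1031 to 1045), Rplp0 at 1094 (985 to 1002), Rplp1 at 747 (648 to 663), Rplp2 at 1095 (1003 to 1014) and Rpsa at 1031 (934 to 949). Without that library, the members' median change in the gp130:IL-6R line was 0.20, against 0.24. In the same group Rps2 was low at 126 CPM in replicate 1 and Rps27a at 1391 CPM in replicate 4. In ChimP3V3 IL-6 replicate 1, the library of its group with the largest total, Rpl3 was low at 842 CPM (others 901 to 909), Rps24 at 1103 (1220 to 1241) and Rps6 at 1341 (1438 to 1457). Rps4x was high at 1030 CPM in ChimP3V3 IL-6 replicate 3. In medium, Rpl38 was low at 821 CPM in ChimP3V3 replicate 4, Rps25 high at 1146 CPM in ChimP3V3 replicate 3, and Rps28 high at 925 CPM in gp130:IL-6R replicate 3.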

How the results depend on the processing

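Over the settings other than a fold threshold and the choice of members, 73 to 77 members were higher and 2 to 3 lower under IL-6 in the gp130:IL-6R line, and 71 to 76 higher and 0 lower in the ChimP3V3 line. With a fold of at least 1.2 these counts were 27, 1 and 22, and between the lines 8 higher and 2 lower in medium and 8 and 3 under IL-6. The count of members with a higher response in the ChimP3V3 line, 2, was 1 with DESeq2, with copies added and among members with no copy listed in the count table. The count with a lower response, 0, was 2 with upper-quartile factors, 6 with library totals alone, 4 with factors without the members, 3 with no filter, 4 with a CPM of at least 5, 7 with the library total as a covariate, 3 with thinned counts, 1 with limma and 6 with cyclic loess. With that covariate 17 members were higher and 10 lower between the lines under IL-6. The cause was not tested.

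Leaving out 1 library each gave 74 to 75 higher and 2 to 3 lower in the gp130:IL-6R line, 73 to 74 and 0 in the ChimP3V3 line, 1 to 4 and 0 to 5 for the difference of responses, 37 to 48 and 7 to 9 between the lines in medium, and 26 to 57 and 6 to 9 under IL-6. The shares then ranged from 6.12% to 6.26%, 7.03% to 7.19%, 6.79% to 6.86% and 7.65% to 7.77% in the order of the groups. The libraries behind the moves of the difference were gp130:IL-6R medium replicate 2 (4 higher without it) and 4 (1 lower), gp130:IL-6R IL-6 replicates 1 (3 lower) and 4 (5 lower), and ChimP3V3 IL-6 replicates 2 (2 lower), 3 (1 higher, 4 lower) and 4 (3 lower).

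By construction, the shares in the same order were 6.58%, 7.67%, 7.32% and 8.34% of the counts of other genes, 6.37%, 7.36%, 7.03% and 7.94% with ribosomal protein genes outside the name rule added, and 6.41%, 7.41%, 7.09% and 8.00% with pseudogenes. They were 5.54%, 6.42%, 6.09% and 6.88% without paralogs and variants and without their parents Rpl3, Rpl7, Rpl10, Rpl22, Rpl39 and Rps27. Among 6622 values of single members and comparisons, 6357 kept direction and side of the threshold, 133 lost and 127 gained a call, and 5 reversed: Rpl10 with its copy added (0.23 in the gp130:IL-6R line), and, between the lines under IL-6 with the covariate, Rpl13a (-0.03), Rpl5 (-0.05), Rps19 (0.00 after rounding) and Rps24 (-0.03).

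The replicate numbers did not pair the libraries: the correlations of same-numbered libraries ran from -0.0411 to 0.0492, and none of 24 was over 0.1. In 7 of these 24 comparisons a library correlated best with its own number. With the replicate block 75 and 74 members were higher under IL-6 and 8 lower between the lines in medium, and it changed no count of member calls by over 1.5 times.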
